A study of Mus musculus with 6 samples.

Results

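The 32 genes described here encode the machinery of fatty acid oxidation and the targets of the peroxisome proliferator-activated receptors (PPARs), and 30 of them were measured among 19057 genes named on the array. They were chosen by name, as members of the pathway, and not by any value, though with earlier results of these data known. Each gene is represented by its probe with the highest mean over the 6 arrays. Ucp2 and Cyp4a10 were not analysed here. The 30 genes comprise 5 regulators, 13 enzymes of mitochondrial oxidation, 5 enzymes of peroxisomal oxidation, Crat, which acts in both organelles, and 6 further PPAR targets.

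Fatty acids are broken down to acetyl-CoA by β-oxidation, mostly in mitochondria, which long chains enter through the carnitine shuttle. Peroxisomes shorten very long and branched chains with their own oxidases, bifunctional enzymes and thiolases. PPARs are nuclear receptors that bind fatty acids and, paired with a retinoid X receptor, switch on genes of both routes, and in the small intestine they respond to dietary fat.

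RNA came from 3 arrays of mouse small intestinal organoids labelled Villin-Cre, Snai1fl/fl (knockout) and 3 arrays of organoids labelled Villin-Cre (control). Organoids are cultured epithelial structures grown from the intestinal lining. Both groups carried the Cre transgene, driven by the promoter of the epithelial gene villin, and both received 0.5 µM tamoxifen for 24 hours, so by label they differed only in the floxed Snai1 alleles. Snai1 encodes a zinc-finger transcriptional repressor, and the series concerns its role in cell lineage choice and stem cell upkeep. The labels do not state whether arrays of a group represent separate mice, and the p-values reflect array-to-array spread that could be purely technical.

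Deposited values ran from 7.71 to 14.8 with a median of 7.87 and an upper quartile of 8.27, and were read as log2. How differences of dim genes relate to those of bright genes on this scale was not tested. The brighter of 2 Snai1 probes read 7.91, 7.86 and 7.96 on the knockout arrays and 7.87, 7.93 and 7.94 on the control arrays, too dim to check the genotype. Of the enterocyte markers 14 of 15 exceeded the upper quartile, whereas all 6 fibroblast, 4 endothelial and 5 adipocyte markers lay within 0.2 of the median or below it. Among macrophage markers 4 of 5 did so, the exception being Cd14 at a group mean of 8.07 on knockout and 8.18 on control arrays.

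None of the 30 genes passed limma's test between knockout and control arrays at an adjusted p under 0.05 over all genes. Among all genes tested 25 passed (0.131%), with 18 lower (0.0945%) and 7 higher (0.0367%) in knockout. In the fit with a replicate block 9 genes passed, again with no member. At an unadjusted p under 0.05 without the block, 3 members were lower (Pparg, Decr1 and Acaa1b) and none higher. At that level 3.34% of all genes were lower and 3.88% higher. With the block 4 members were lower, Creb3l3 being added, and 1 was higher (Acaa1a). Over all 19057 genes that fit gave 961 lower and 1120 higher at that level. The 3 knockout values lay wholly below the 3 control values for Pparg, Decr1 and Acaa1b, and wholly above them for Acaa1a. Over all genes, groups were separated in this way for 5.85% on the lower and 6.20% on the higher side.

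Across the 30 members 20 had a lower and 10 a higher mean on knockout arrays, while 50.7% of all genes had a lower mean. The members' median difference was -0.020, against -0.00057 over all genes. Among the 23 members above the upper quartile 14 were lower and 9 higher, with a median of -0.011. Without control replicate 1 the median of all 30 members was 0.0062, so its sign rested on that array. The differences ranged from -0.20 for Acaa1b to 0.15 for Acaa1a. Every 95% interval from the fit without the block lay between -0.45 (Creb3l3) and 0.39 (Acadvl). On the deposited scale these limits are 1.37-fold higher in control and 1.31-fold higher in knockout. Each interval covers its own gene, not all 30 jointly, and rests on array-to-array spread. For Creb3l3 the SE was 0.14 in that fit and 0.03 with the block. To be called without the block, a member with the median standard error would have needed a difference of about 0.86. The requirement ran from 0.21 for Pdk4 to 1.65 for Acot1.

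**Figure D1:**
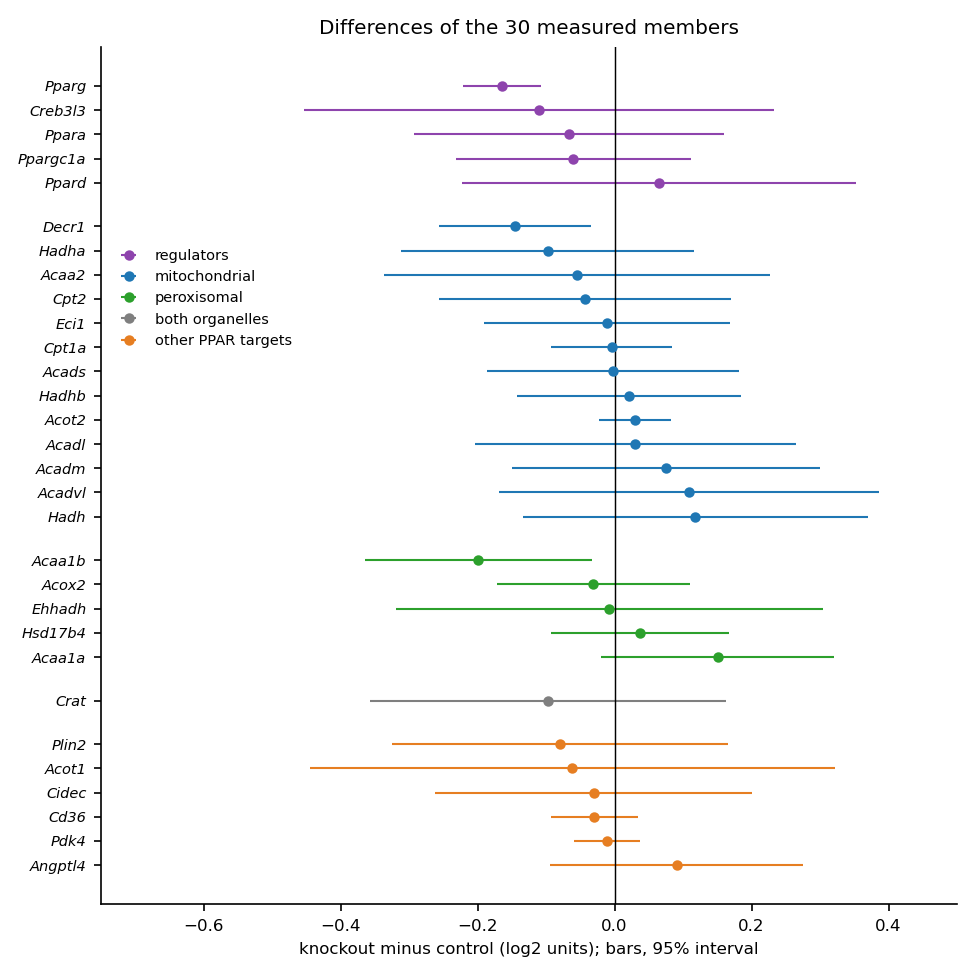
Difference between knockout and control means (log2 units, x axis) of each of the 30 measured members, with its 95% interval from limma, grouped and coloured by role. The intervals of Pparg, Decr1 and Acaa1b lie below 0, and the other 27 include 0.

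**Figure D2:**
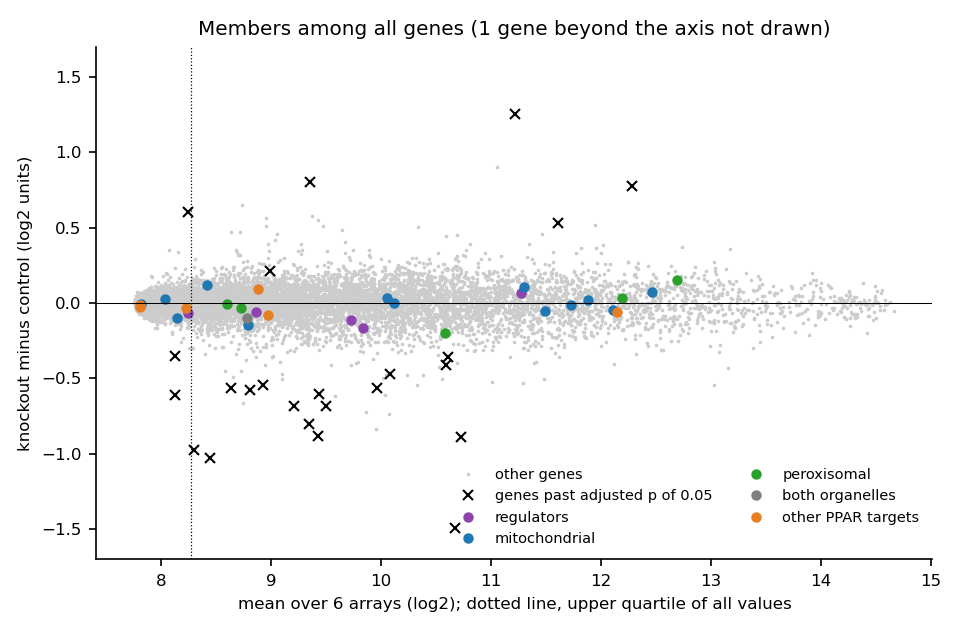
Difference between knockout and control means (log2 units, y axis) against the mean over 6 arrays (log2, x axis) for all 19057 genes, 1 of which lies beyond the axis. Members (coloured by role) lie between -0.20 and 0.15, and the 25 genes past an adjusted p of 0.05 are marked.

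Among the regulators, Pparg, the PPAR best known for driving fat storage in adipocytes, had the lowest p of all members in the fit without a replicate block, while with the block Acaa1b came first. Its brightest probe, ILMN_1221060, read 9.74, 9.79 and 9.73 on knockout arrays and 9.92, 9.91 and 9.92 on control arrays. The groups did not overlap, and each knockout array lay below the control array of its number, by 0.18, 0.12 and 0.19. The difference of -0.16 ± 0.02 (SE), 1.12-fold higher in control, did not pass over all genes (limma, adjusted p = 0.136, and 0.165 with the replicate block). The control arrays of Pparg had an SD of 0.0051, far below the 0.0321 of the knockout arrays, and under a trended and robust variance model its adjusted p was 0.761, the highest of 12 alternative fits, which began at 0.124. With the 3 probes of the gene averaged the difference was -0.07. Of its other probes, 1 read 8.04 ± 0.01 on knockout and 8.07 ± 0.08 on control arrays (SD, n = 3 each) and the other 7.80 ± 0.04 and 7.82 ± 0.05, so neither was bright enough to bear on the difference.

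Pparg has 3 annotated starts, and the RefSeq windows of 300 bases (250 before and 50 after a start, build GRCm38.p6) at 2 of them each hold the letters AGGTCA. This nuclear receptor motif is the repeated unit of the PPAR response element, the direct repeat AGGTCANAGGTCA. Both windows are shown because Pparg has the lowest p of the members in the fit without the block, with AGGTCA in capitals. The first lies at chr6:115360894-115361193 on the plus strand and the second at chr6:115362099-115362398 on the plus strand, and neither holds the full repeat.
Pparg, first start: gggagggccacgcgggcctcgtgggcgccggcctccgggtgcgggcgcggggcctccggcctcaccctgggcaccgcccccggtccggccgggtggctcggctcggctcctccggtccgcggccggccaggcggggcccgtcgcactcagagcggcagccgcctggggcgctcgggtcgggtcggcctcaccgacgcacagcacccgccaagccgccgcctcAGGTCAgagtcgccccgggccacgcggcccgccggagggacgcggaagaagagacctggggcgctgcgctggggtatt
Pparg, second start: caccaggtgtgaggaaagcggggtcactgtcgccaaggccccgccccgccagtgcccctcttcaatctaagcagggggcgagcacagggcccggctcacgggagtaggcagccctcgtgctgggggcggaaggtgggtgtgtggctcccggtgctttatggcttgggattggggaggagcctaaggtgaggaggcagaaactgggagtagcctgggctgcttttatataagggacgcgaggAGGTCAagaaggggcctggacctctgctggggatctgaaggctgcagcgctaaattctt

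Ppara, the receptor that induces fatty acid oxidation in liver and gut, read 8.32, 8.16 and 8.17 on knockout arrays and 8.47, 8.22 and 8.15 on control arrays. Ppard, a receptor expressed throughout the intestinal epithelium, read 11.30, 11.17 and 11.44 on knockout arrays and 11.29, 11.02 and 11.41 on control arrays. In both genes replicate 2 lay below replicate 1 in either genotype and the groups overlapped. The differences were -0.07 ± 0.09 for Ppara and 0.06 ± 0.12 for Ppard (SE; adjusted p = 0.967 and 0.983, limma).

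Ppargc1a, a coactivator of PPARs and of mitochondrial biogenesis, read 8.90, 8.79 and 8.81 on knockout arrays and 9.01, 8.91 and 8.76 on control arrays. Creb3l3, a membrane-bound transcription factor of liver and small intestine that acts with Ppara, read 9.67, 9.48 and 9.87 on knockout arrays and 9.84, 9.54 and 9.96 on control arrays. Creb3l3 followed the replicate number closely, with replicate 2 lowest and replicate 3 highest in both groups, and was lower in knockout in 3 of 3 pairs, by 0.17, 0.06 and 0.10. Its difference was -0.11 ± 0.14 (SE; adjusted p = 0.959, and 0.308 with the replicate block), and that of Ppargc1a was -0.06 ± 0.07 (adjusted p = 0.949).

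**Figure D3:**
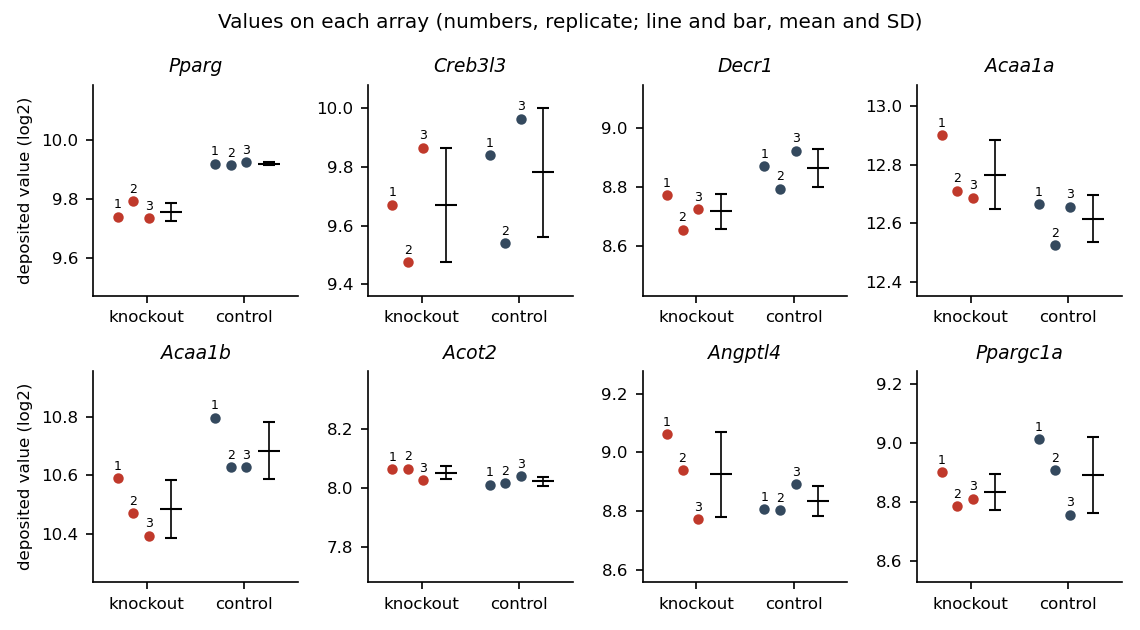
Deposited values (log2, y axis) of 8 members on each knockout (red) and control (blue) array, with replicate numbers, and the mean and SD of each group to the right of its points; each panel spans 0.72 log2 units. Pparg, Decr1 and Acaa1b lie lower and Acaa1a higher on all 3 knockout arrays, and in the other 4 panels the groups overlap.

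Of the 13 mitochondrial members, 6 had a higher and 7 a lower mean on knockout arrays, and the median difference was -0.0018. None passed the test, and at an unadjusted p under 0.05 only Decr1 was lower. The carnitine shuttle was represented by its outer and inner membrane transferases. Cpt1a, the outer enzyme that gates entry, read 7.86, 7.78 and 7.83 on knockout arrays and 7.87, 7.77 and 7.84 on control arrays. Both of its probes lay below the median of all values in each group, near the bottom of the scale. Cpt2, the inner enzyme, was bright, at 12.10, 12.00 and 12.17 on knockout arrays and 12.25, 11.95 and 12.20 on control arrays, with overlapping groups and a difference of -0.04 ± 0.09 (SE).

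The acyl-CoA dehydrogenases take the first step of each cycle and divide the substrates by chain length. Acadvl, for very long chains, read 11.24, 11.46 and 11.36 on knockout arrays and 11.43, 11.02 and 11.29 on control arrays. Acadl, for long chains, read 10.18, 10.05 and 9.97 on knockout arrays and 10.06, 9.86 and 10.20 on control arrays. For both genes replicate 2 of the control was the lowest control array, and the order of the genotypes differed between pairs, with Acadvl at -0.19, 0.44 and 0.07 from pair 1 to pair 3.

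Acadm, for medium chains, read 12.56, 12.39 and 12.55 on knockout arrays and 12.55, 12.24 and 12.49 on control arrays. It was higher in knockout in 3 of 3 pairs, by 0.01, 0.15 and 0.06, while the groups overlapped. Acads, for short chains, read 10.27, 10.10 and 9.98 on knockout arrays and 10.12, 10.17 and 10.07 on control arrays. The differences of the 4 dehydrogenases were 0.11 ± 0.11 (Acadvl), 0.03 ± 0.10 (Acadl), 0.07 ± 0.09 (Acadm) and -0.0018 ± 0.075 (Acads; SE, adjusted p between 0.944 and 0.999, limma). The further probes of Acadvl, Acadl and Acads differed by 0.17 ± 0.10, by 0.03 ± 0.03 and -0.09 ± 0.09, and by -0.10 ± 0.06.

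Hadha and Hadhb encode the α and β subunits of the mitochondrial trifunctional protein, which carries out the later steps on long chains. Hadhb read 11.77, 11.92 and 11.99 on knockout arrays and 11.79, 11.88 and 11.94 on control arrays, with pair differences of -0.02, 0.03 and 0.05. Hadha, whose probe was dim, read 8.13, 8.10 and 8.07 on knockout arrays and 8.12, 8.40 and 8.07 on control arrays. Its difference of -0.10 ± 0.09 (SE; adjusted p = 0.928) came from control replicate 2 alone, the other 5 values lying between 8.07 and 8.13, and without that array it was 0.0043.

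The 2 subunit genes are read in opposite directions, and their RefSeq promoter windows overlap by 228 bases on chromosome 5 (GRCm38.p6). The window of Hadhb, at chr5:30155003-30155302 on the plus strand, is shown because it holds all of the sequence that both windows share. It holds no AGGTCA on either strand. Hadha and Hadhb lie 28 and 29 measured genes from 1500035N22Rik, which also passed over all genes, and apart from these and Decr1 no member lay within 30 genes of a gene that passed.
Hadhb: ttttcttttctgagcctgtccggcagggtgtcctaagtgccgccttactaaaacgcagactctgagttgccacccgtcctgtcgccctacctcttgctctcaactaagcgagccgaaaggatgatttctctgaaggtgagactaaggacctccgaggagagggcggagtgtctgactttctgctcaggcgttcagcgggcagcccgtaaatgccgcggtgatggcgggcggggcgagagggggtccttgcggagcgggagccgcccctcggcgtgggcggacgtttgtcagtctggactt

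Hadh, which oxidises medium- and short-chain hydroxyacyl-CoA, read 8.27, 8.50 and 8.66 on knockout arrays and 8.33, 8.30 and 8.45 on control arrays. Its difference of 0.12 ± 0.10 (SE; adjusted p = 0.926) was the largest on the higher side among the mitochondrial members, and the groups overlapped. Acaa2, the mitochondrial thiolase, read 11.73, 11.36 and 11.30 on knockout arrays and 11.58, 11.51 and 11.47 on control arrays. Replicate 1 of the knockout was above and the other 2 knockout arrays below every control array. The 4 probes of Acaa2 differed by between -0.18 and 0.03, and none passed.

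The auxiliary enzymes of unsaturated fatty acids differed in size. Decr1, the dienoyl-CoA reductase needed for polyunsaturated chains (probe ILMN_1235374), read 8.77, 8.65 and 8.72 on knockout arrays and 8.87, 8.79 and 8.92 on control arrays. All knockout values lay below all control values, and the pairs differed by -0.10, -0.14 and -0.20. The difference was -0.15 ± 0.05 (SE), 1.11-fold higher in control, and did not pass over all genes (adjusted p = 0.526, and 0.198 with the replicate block, limma). Decr1 lies on chromosome 4 within 20 measured genes of Esrp1, which passed over all genes at 11.74, 11.87 and 11.92 on knockout arrays and 10.48, 10.66 and 10.62 on control arrays. Any bearing of that neighbourhood on Decr1 was not tested. Eci1, the enoyl-CoA isomerase, read 11.88, 11.66 and 11.63 on knockout arrays and 11.81, 11.72 and 11.68 on control arrays, a difference of -0.01 ± 0.07.

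Acot2, a mitochondrial thioesterase that releases free fatty acids, read 8.06, 8.07 and 8.03 on knockout arrays and 8.01, 8.02 and 8.04 on control arrays. Its 3 probes disagreed, with the brightest at 0.03 ± 0.02 and the others at -0.11 ± 0.03 and -0.03 ± 0.02 (SE). All 3 were dim, and none passed over all probes (lowest adjusted p = 0.635). Acot2 and its neighbour Acot1 are close relatives, so a probe of one may detect the other.

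Of the 5 peroxisomal members, 2 had a higher and 3 a lower mean on knockout arrays, with a median difference of -0.0075, and none passed the test. Acox2, an oxidase of branched chains and bile acid precursors, read 8.68, 8.79 and 8.67 on knockout arrays and 8.64, 8.82 and 8.77 on control arrays. Ehhadh, the L-bifunctional enzyme, read 8.48, 8.55 and 8.75 on knockout arrays and 8.75, 8.34 and 8.70 on control arrays. Hsd17b4, the D-bifunctional enzyme, read 12.21, 12.16 and 12.24 on knockout arrays and 12.26, 12.07 and 12.18 on control arrays. In these 3 genes the control arrays were more spread than the knockout arrays and enclosed them, and the differences were -0.03 ± 0.06, -0.01 ± 0.13 and 0.04 ± 0.05 (SE).

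The 2 peroxisomal thiolase genes, which carry out the last step of the cycle, differed from control in opposite directions. Acaa1a (probe ILMN_2762728) read 12.90, 12.71 and 12.69 on knockout arrays and 12.67, 12.53 and 12.66 on control arrays. Acaa1b (probe ILMN_2659997) read 10.59, 10.47 and 10.39 on knockout arrays and 10.80, 10.63 and 10.63 on control arrays. Neither gene's groups overlapped, and the direction held in 3 of 3 pairs for each, at 0.24, 0.19 and 0.03 for Acaa1a and -0.21, -0.16 and -0.23 for Acaa1b. The differences were 0.15 ± 0.07 for Acaa1a (adjusted p = 0.748, and 0.367 with the replicate block) and -0.20 ± 0.07 for Acaa1b (adjusted p = 0.584, and 0.151 with the block; SE, limma).

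Within an array, the log2 value of Acaa1a exceeded that of Acaa1b by 2.31, 2.24 and 2.29 on knockout arrays and by 1.87, 1.90 and 2.03 on control arrays. The balance between the probes therefore shifted by 0.35. Its lack of overlap follows from that of each gene alone and adds nothing to it. The pair was singled out after its values were seen and is given here without a test. The genes are near-identical copies, and a probe of one may detect the other, which was not tested. Their promoters differ more: of the 262 bases that could be aligned, 63.7% were identical, close to the 63.9% of the unrelated windows of Acadm and Acads. Both windows are shown to let the 2 genes be compared, at chr9:119341044-119341343 on the plus strand for Acaa1a and chr9:119157044-119157343 on the minus strand for Acaa1b (RefSeq, GRCm38.p6). AGGTCA is in neither window.
Acaa1a: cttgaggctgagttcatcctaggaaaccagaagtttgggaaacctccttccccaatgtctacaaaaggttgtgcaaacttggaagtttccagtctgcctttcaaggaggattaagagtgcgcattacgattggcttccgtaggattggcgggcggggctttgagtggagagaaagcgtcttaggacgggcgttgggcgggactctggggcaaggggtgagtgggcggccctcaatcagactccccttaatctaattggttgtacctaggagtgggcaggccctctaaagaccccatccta
Acaa1b: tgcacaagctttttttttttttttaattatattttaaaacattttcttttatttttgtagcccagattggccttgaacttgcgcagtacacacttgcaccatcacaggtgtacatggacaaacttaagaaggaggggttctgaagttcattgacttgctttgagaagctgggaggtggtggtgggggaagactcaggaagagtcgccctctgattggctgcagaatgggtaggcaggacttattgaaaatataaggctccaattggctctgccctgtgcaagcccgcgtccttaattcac

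Mitochondrial and peroxisomal members had nearly the same median difference between genotypes, given here as a description with no test over the lists. The medians of the 13 and the 5 genes were 0.0058 apart, with an SD over the 3 pairs of 0.0626, and leaving out single arrays moved this value between -0.057 and 0.037. As the mean of its genes, less its mean over the 6 arrays, the mitochondrial set stood at 0.035, -0.025 and -0.0080 on knockout arrays and 0.030, -0.056 and 0.022 on control arrays. The peroxisomal set stood at 0.015, -0.022 and -0.0087 on knockout arrays and 0.065, -0.080 and 0.030 on control arrays. In both sets replicate 2 was lowest in each genotype and replicate 1 highest, and the knockout values of both sets lay inside or near the range of the control values. The mitochondrial less the peroxisomal mean was 0.020, -0.0026 and 0.00074 on knockout arrays and -0.035, 0.025 and -0.0078 on control arrays, with overlap. The range of the peroxisomal set was wider on control than on knockout arrays.

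Crat, which moves acetyl groups on and off carnitine in both organelles, read 8.85, 8.70 and 8.66 on knockout arrays and 9.05, 8.66 and 8.79 on control arrays, a difference of -0.10 ± 0.11 (SE). Placing Crat in either set left the medians of the sets within 0.018 of each other.

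Among the 6 other PPAR targets 5 had a lower and 1 a higher mean on knockout arrays, and none passed. Angptl4, a secreted inhibitor of lipoprotein lipase, was the 1 with a higher mean and read 9.06, 8.94 and 8.77 on knockout arrays and 8.81, 8.80 and 8.89 on control arrays. Its groups overlapped, and pair 3 went the other way (0.26, 0.14 and -0.12). Plin2, which coats lipid droplets, read 8.85, 8.91 and 9.03 on knockout arrays and 9.12, 8.80 and 9.11 on control arrays, a difference of -0.08 ± 0.10 (SE). Acot1, a cytosolic thioesterase, read 12.24, 12.26 and 11.83 on knockout arrays and 12.15, 12.40 and 11.97 on control arrays. Replicate 3 was the lowest in both groups of Acot1, and the widest interval among these 6 was its own, from -0.45 to 0.32.

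Cidec, a lipid droplet protein, differed by -0.03 ± 0.09 (SE) at group means of 8.22 on knockout and 8.25 on control arrays. Cd36, a fatty acid transporter, and Pdk4, the kinase that turns off pyruvate dehydrogenase when fat is burned, lay at the bottom of the scale. Cd36 averaged 7.80 ± 0.04 on knockout and 7.83 ± 0.02 on control arrays, and Pdk4 averaged 7.81 ± 0.02 on knockout and 7.82 ± 0.0045 on control arrays (SD, n = 3 each). In all, 23 of the 30 members exceeded the upper quartile, and the 7 dim ones were Ppara, Cpt1a, Hadha, Acot2, Pdk4, Cd36 and Cidec.

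The pathway was followed further in 104 measured genes, of 117 listed, that are not members. Of these 44 had a higher and 60 a lower mean on knockout arrays, while 50.7% of all genes had a lower mean. The median difference of the 104 was -0.0067, and none of them passed over all genes. At an unadjusted p under 0.05 without the block, 4 were lower (Eci2, Acot4, Pex16 and Cideb) and 1 higher (Acsl3), against 3.34% and 3.88% of all genes. With the block 9 were lower and 3 higher, against 961 and 1120 of all 19057 genes.

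Peroxisomal genes made up 3 of the 4 lower ones in the fit without the block, and 39 of all 104 further genes. Eci2, a peroxisomal enoyl-CoA isomerase, read 9.54, 9.53 and 9.54 on knockout arrays and 9.65, 9.78 and 9.72 on control arrays. Acot4, a peroxisomal thioesterase, read 9.01, 8.97 and 9.05 on knockout arrays and 9.17, 9.13 and 9.13 on control arrays. Pex16, needed to build the peroxisomal membrane, read 9.57, 9.41 and 9.46 on knockout arrays and 9.78, 9.67 and 9.61 on control arrays. All 3 lay lower in knockout without overlap, with differences of -0.18 ± 0.04, -0.14 ± 0.03 and -0.21 ± 0.06 (SE; adjusted p = 0.284 for Eci2 and Acot4 and 0.482 for Pex16, limma).

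Across the 39 other peroxisomal genes, 27 had a lower and 12 a higher mean, while 50.7% of all genes had a lower mean. The median difference of the 39 was -0.027, with all values between -0.21 and 0.22. The groups did not overlap for 5 of the 39 on the lower side and for none on the higher side, against 5.85% and 6.20% of all genes. The 5 included Phyh, the phytanoyl-CoA hydroxylase, and Acot5, both dim, with means over 6 arrays of 7.80 and 7.83, below the median of all values. Lower in 3 of 3 pairs were 13 of the 39, and higher in 3 of 3 pairs were 2. Over all genes, 2891 of 19057 were lower and 2983 higher in 3 of 3 pairs. Cat, the peroxisomal catalase, ran the other way at 10.42, 10.50 and 10.70 on knockout arrays and 10.38, 10.15 and 10.45 on control arrays (difference 0.22 ± 0.10, SE, adjusted p = 0.762). The set's mean, less its mean over 6 arrays, was 0.023, -0.050 and -0.019 on knockout arrays and 0.047, -0.022 and 0.020 on control arrays, so the groups overlapped while each knockout array lay below the control array of its number.

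Among 20 other mitochondrial genes 12 had a lower and 8 a higher mean, with a median difference of -0.0040. Etfb, a subunit of the flavoprotein that passes electrons from the dehydrogenases, read 12.79, 12.59 and 12.34 on knockout arrays and 12.91, 12.91 and 12.68 on control arrays. It was lower in 3 of 3 pairs, with overlapping groups and a difference of -0.25 ± 0.13 (SE; adjusted p = 0.772, limma). With the replicate block the lowest p of these 20 was that of Hsd17b10, named after its values were seen. Its pairs differed by -0.17, -0.17 and -0.16, with overlapping groups (adjusted p = 0.844, and 0.151 with the block, limma). In the 29 further PPAR targets 17 were lower and 12 higher. Acsl3, an acyl-CoA synthetase of lipid droplets, read 10.87, 11.01 and 10.88 on knockout arrays and 10.76, 10.67 and 10.82 on control arrays, a difference of 0.17 ± 0.05 (adjusted p = 0.546). Cideb, which helps load fat onto lipoproteins, read 11.42, 11.07 and 11.07 on knockout arrays and 11.44, 11.42 and 11.48 on control arrays. Its difference of -0.26 ± 0.10 (adjusted p = 0.648) came from knockout replicates 2 and 3.

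Of the 16 measured receptor partners and coregulators, such as the retinoid X receptors, 12 had a higher and 4 a lower mean, with a median difference of 0.0088. Ep300, a histone acetyltransferase and coactivator, and Ppargc1b, a relative of Ppargc1a, are named after their values were seen. Ep300 was higher in knockout in 3 of 3 pairs, by 0.30, 0.26 and 0.20, with overlapping groups and a difference of 0.25 ± 0.13 (SE; adjusted p = 0.799, and 0.140 with the replicate block, limma). Ppargc1b was lower in 3 of 3 pairs, with a difference of -0.22 ± 0.13 (adjusted p = 0.839, and 0.350 with the block). Fabp1 and Fabp2, the fatty acid-binding proteins of enterocytes, lay at the bottom of the scale, with means over 6 arrays of 7.79 and 7.81. Whether those probes detect their transcripts was not tested.

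Absorptive enterocytes take up dietary fat, and organoids hold several cell types. A change in cell makeup and a change in RNA per cell cannot be told apart here. The 15 enterocyte markers had a mean level of 11.2 to 11.5 on knockout arrays and 11.1 to 11.6 on control arrays. They stood at -0.098, -0.15 and 0.14 on knockout arrays and 0.10, -0.24 and 0.23 on control arrays, less their mean over 6 arrays. In this list 10 had a lower and 5 a higher mean, and none passed. Those of lowest p without the block were Apoc3 at -0.25, Apoa1 at -0.28 and Apoa4 at -0.10. With the replicate block the lowest was Rbp2, at -0.21, -0.22 and -0.21 from pair 1 to pair 3 (adjusted p = 0.104, limma). Replicate 2 was thus the lowest in both genotypes for the enterocyte list as for the mitochondrial and peroxisomal sets. The 9 crypt stem cell markers all had a higher mean on knockout arrays, by a median of 0.080, and none passed, the lowest p being that of Olfm4 (0.45 ± 0.13, SE, adjusted p = 0.482, and 0.346 with the replicate block, limma). With the block Lgr5 had the lowest p, higher in 3 of 3 pairs by 0.35, 0.45 and 0.44 (adjusted p = 0.0693). The mean of the list was higher in knockout in 3 of 3 pairs, by 0.11, 0.11 and 0.32. It stood at -0.047, 0.20 and 0.12 on knockout arrays and -0.16, 0.092 and -0.20 on control arrays. The part of cell makeup in the members' values was not tested.

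Of the other epithelial types, the mean differences of the marker lists were -0.050 for 4 Paneth, 0.067 for 6 goblet, -0.10 for 5 enteroendocrine and 0.042 for 5 tuft cell genes. All 5 tuft cell genes lay near the median, as did 2 of the goblet and 2 of the enteroendocrine genes. Chga, the enteroendocrine granule protein, had the lowest p among the markers of these types in the fit without the block. Its difference was -0.17 ± 0.04 (SE, adjusted p = 0.395, limma). The enteroendocrine list, less its mean over 6 arrays, stood at -0.069, -0.077 and -0.0074 on knockout arrays. On control arrays it stood at 0.068, 0.031 and 0.054, without overlap.

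**Figure D4:**
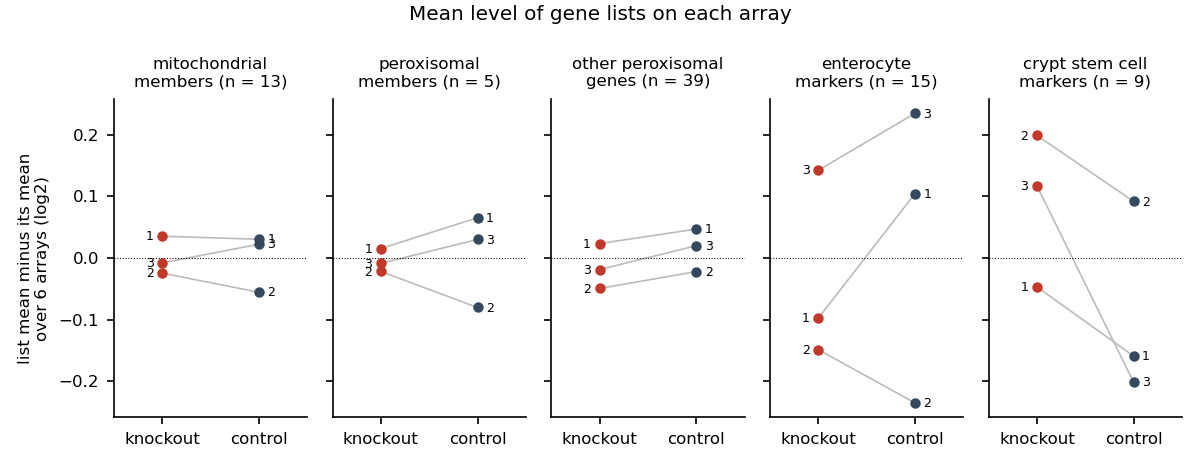
Mean level of 5 gene lists on each array, as the difference (log2, y axis) from the list's mean over 6 arrays, for knockout (red) and control (blue) arrays, with lines joining arrays of the same replicate number. The mitochondrial and peroxisomal sets stay within 0.080 of 0, while enterocyte markers span -0.24 to 0.23 and crypt stem cell markers -0.20 to 0.20.

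In RefSeq promoter windows of 300 bases, found for 25 of the 30 measured members, 7 genes (28%) held AGGTCA on either strand, against 18.1% of 27025 genes. They were Pparg, Creb3l3, Acadm, Acadvl, Cpt1a, Cd36 and Plin2, and none was peroxisomal, of 4 with a window. The full repeat AGGTCANAGGTCA, searched on both strands and containing AGGTCA as its unit, was in no member and in 13 genes in all (0.0481%). A match describes these letters only, and response elements also lie outside such windows.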

How the data were processed

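Values were the authors' deposited log2 table of 45281 Illumina probes on 6 arrays, with biotin-labelled cRNA per the labels' protocols. The sources used here do not give the log base, background correction or software. Base 2 was assumed, and once sorted, the 6 columns matched to within 0.0019, a pattern that quantile normalization leaves. The platform's annotation paired 34885 probes with 1 gene, 18 with several and 10378 with none. The probe of highest mean stood for each of 19057 genes. No gene was filtered out.

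Knockout was compared with control in limma 3.58.1 (R 4.3.3; lmFit, eBayes without trend, Benjamini-Hochberg over all genes, 3 arrays a group). Members, gene lists and the rule for named genes (all members, the 8 further pathway genes and up to 3 markers a list of lowest p) were chosen with earlier results of these data known. Over all genes, deviations from group means correlated at 0.35, 0.33 and 0.46 between arrays of the same number, and at most at 0.0026 between different numbers. On that ground the numbers were taken as pairs in the alternative fit with a replicate block. Over the measured members the same numbers correlated at 0.10, 0.51 and 0.70. Knockout replicate 1 correlated more closely with control replicate 2 there, at 0.32, so the members do not bear out the pairing of replicate 1. Deviations cancel out within a group of 3 arrays, so these correlations are not independent of each other. The labels do not say what a number shares. In simulated data of 19057 genes, changes of 0.5, 1 and 2 were given to 67, 67 and 66 genes, all above the upper quartile. Of these, 83.6% of changes of 0.5 and 98.5% of changes of 1 were recovered, and 9.18% of calls were false. These shares do not carry over to the members, because the adjusted cut depends on how many genes change. In the real data the median requirement was a difference of 0.71 for genes above the upper quartile and 0.86 for members. Alternatives covered the block, scaling, probes, brightness, variance model, array weights and single arrays. Sequences were read from RefSeq (GRCm38.p6) and aligned with Biopython 1.88.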

Additional observations from a re-analysis of the deposited data

How the results depend on the processing

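The count of called members was 0 in all 12 alternative fits, with a lowest adjusted p of 0.124 (Pparg under cyclic loess), and in none of 353 refitted member values was the threshold passed. The sign of the difference held in every fit for 10 members, 7 lower and 3 higher, while 37 of the 353 values changed sign. The lower ones were Pparg, Creb3l3, Decr1, Acaa1b, Plin2, Cd36 and Pdk4, the last 2 at the bottom of the scale. The higher ones were Acaa1a, Hadh and Angptl4. The replicate block, the restriction to bright genes and the variance model leave each difference unchanged, so signs in those fits were fixed in advance. The count of called genes, 25 as reported, was 9 with the replicate block, 41 among genes above the upper quartile and 71 with a trended and robust variance. It was between 4 and 23 without single arrays, with 13 without knockout replicate 2, 4 without knockout replicate 3, 6 without control replicate 1, 15 without control replicate 2 and 9 without control replicate 3. The members' median difference ran from -0.031 to 0.0062 without single arrays, the last without control replicate 1. The mitochondrial minus peroxisomal median ran from -0.057 without knockout replicate 1 to 0.037 without knockout replicate 3. The cause of these shifts was not tested. Ucp2 could not be counted as mitochondrial because it was not measured, so only Pdk4 was moved there. The replicate block changed no member's call. Cpt1a, Cd36 and Pdk4 lay below the median of all values, which limits what their differences show.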
